A study of Mus musculus with 4 samples.

Results

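The miRNAs described here are 40 mature miRNAs that are abundant in mesenchymal cells or are known from TGF-β signalling and the diabetic kidney, among them mmu-miR-145a-5p, mmu-miR-21a-5p, mmu-miR-29a-3p and the miR-200 family. They were followed through chimeric reads, which join a miRNA to a piece of another RNA, from AGO2-CLASH of mouse mesangial cells (MMC), the contractile support cells of the kidney glomerulus. In CLASH, RNA is fixed to protein in the living cells by UV light, AGO2 is immunoprecipitated, the RNA ends held in it are ligated to each other, and the ligated molecules are sequenced. A read belonged to the list when its deposited miRNA name was one of the 40, and each distinct read was counted once per library with its deposited reads count. Of the 40 names, 38 occurred among 1643 miRNAs in all, and miR-30d-5p and miR-192-5p were not listed in any of the 4 libraries.

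Both genotypes were primary glomerular mesangial cells of C57BL/6J mice, grown in medium with serum, used at early passage and exposed to UV light for cross-linking before lysis. WT MMC carried no engineered allele, and miR-379KO MMC came from mice homozygous for a CRISPR-Cas9 nickase deletion within the miR-379 gene. Each genotype had 2 libraries, named A and B, and values per library are given below with A before B. The number of animals behind a library was not given in the sources used here, so the spread between 2 libraries may be biological or technical.

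A miRNA guides AGO2 mainly through its seed, the bases near its 5′ end, which pair with a matching stretch that lies most often behind the coding sequence of an mRNA, in its 3′UTR. In mesangial cells and other mesenchymal cells, miR-143 and miR-145a are known for the contractile phenotype, miR-21a for fibrosis, miR-29 for repression of collagens, and miR-192, miR-200, miR-216a and miR-217 for the response to TGF-β and high glucose. The miR-23, miR-24 and miR-27 miRNAs are transcribed together, as are miR-199a and miR-214, and miR-17, miR-20a and miR-93 share a seed and are known from proliferating cells.

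The mature sequences of 12 of the 15 members with 10 or more long reads (defined below), and of 2 others whose target sites are printed further on, show which miRNAs can pair with the same site. They are RefSeq sequences (GRCm38.p6), 5′ to 3′, with the seed, bases 2 to 8, in capitals, and members that share a seed stand together. The pair of miR-125 members differ only after the seed. Of those with a single gene, mmu-miR-21a-5p lies at chr11:86584120-86584141 (minus strand), miR-214-3p at chr1:162223438-162223459 (plus), miR-125a-5p at chr17:17830817-17830840 (plus), miR-155-5p at chr16:84714143-84714165 (plus), miR-29a-3p at chr6:31062673-31062694 (minus) and miR-23a-3p at chr8:84208563-84208583 (plus).
miR-125a-5p: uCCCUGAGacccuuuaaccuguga
miR-125b-5p: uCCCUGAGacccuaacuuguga
miR-23a-3p: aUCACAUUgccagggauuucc
miR-27b-3p: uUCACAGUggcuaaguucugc
miR-24-3p: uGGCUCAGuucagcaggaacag
miR-21a-5p: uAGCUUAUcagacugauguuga
miR-29a-3p: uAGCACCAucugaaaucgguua
miR-16-5p: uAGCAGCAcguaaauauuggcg
miR-214-3p: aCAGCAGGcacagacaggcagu
miR-199a-3p: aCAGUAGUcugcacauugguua
miR-155-5p: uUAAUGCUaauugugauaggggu
miR-10b-5p: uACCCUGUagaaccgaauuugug
miR-26a-5p: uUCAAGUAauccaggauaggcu
miR-20a-5p: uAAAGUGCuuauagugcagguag

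The 4 libraries held 6326 to 16324 chimeric reads. WT A stood apart: it was the deepest, and in 51.5% of its distinct reads outside the list the piece called miRNA, joined with as many as 10 further nt at both of its ends, was found unbroken in the genome outside miRNA genes, against 35.1% to 38.5% in the other libraries. The deleted miRNA was scarcely seen, with 2 reads and 1 read of miR-379-5p in the WT libraries and 0 in both miR-379KO libraries, too few to check the labels. The tissue was checked against marker genes listed as targets. Of 11 mesangial marker genes, 7 were listed as targets, at 156 to 213 reads per 10000 chimeric reads, mostly Fn1 and Acta2, while Pdgfra, Itga8, Thy1 and Gata3 were not. Of 5 endothelial and 3 leukocyte markers none was listed, podocyte markers had 0 to 3 reads a library and tubular markers 0 or 1. Counts are of reads without molecular identifiers, so every interval below covers counting error only.

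Member reads were a small part of each library and the highest share was seen in miR-379KO MMC. There were 282 and 229 member reads in the WT libraries and 210 and 243 in the knockout libraries, 2.65% of all reads. Per 10000 chimeric reads the WT libraries held 173 (95% exact binomial interval 153 to 194) and 318 (279 to 362). The miR-379KO libraries held 332 (289 to 379) and 375 (330 to 424). The means were 246 ± 103 in WT MMC and 354 ± 30.6 in miR-379KO MMC (SD, n = 2). By these counts both miR-379KO libraries lay above both WT libraries, but the interval of WT B overlapped those of both miR-379KO libraries. With each distinct sequence counted once, WT B (333) lay above miR-379KO A (322). The spread in WT MMC came from the low WT A. With 2 libraries against 2 no permutation test of a single value can pass the threshold, and this share was not tested. Of 714 distinct member sequences, 17 were found in more than 1 library.

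The members were read as nearly whole miRNAs. Their alignment to the mature sequence had a median of 21 or 22 nt in each library, against 14 nt for all other miRNAs in each. A long sense read was defined as one whose miRNA aligned in the sense direction over 16 nt or more. Long sense reads made up 74.5% and 85.2% of member reads in WT MMC and 85.7% and 84.4% in miR-379KO MMC. Of the reads of other miRNAs they made up 25.9% and 33.5% in WT MMC and 31.7% and 29.5% in miR-379KO MMC. The difference averaged 52.3 ± 2.79 percentage points (SD, n = 4 libraries) and was positive in 4 of 4 libraries. A two-sided exact sign-flip permutation test gave p = 0.125, the smallest p that 4 libraries allow. The members were chosen as abundant or well-known miRNAs, with earlier results known, so this comparison is descriptive. Whether the choice of list alone gives the difference was not tested. Of 591 distinct long sense member reads, 1 had its extended miRNA segment unbroken in the genome (0.169%), against 16.8% of those of other miRNAs. Among the member reads that were short or antisense, 60.4% were unbroken in the genome, beside 53.7% for other miRNAs.

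That split divided the list. Long sense reads were found for 31 members, and 15 of these had 10 or more. The 7 listed members without any were miR-29c-3p, miR-30e-5p, miR-146a-5p, miR-200b-3p, miR-200c-3p, miR-216a-5p and miR-217-5p. For miR-217-5p the 9 reads were all short or antisense alignments, and 5 of its 7 distinct reads were unbroken in the genome. The epithelial miR-200 members had 1 short or antisense read each, in WT A. No long sense read was found either for miR-126a-3p (endothelial), for miR-142a-3p, miR-150-5p and miR-223-3p (leukocyte), for miR-122-5p (hepatocyte) or for miR-194-5p (epithelial).

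**Figure D1:**
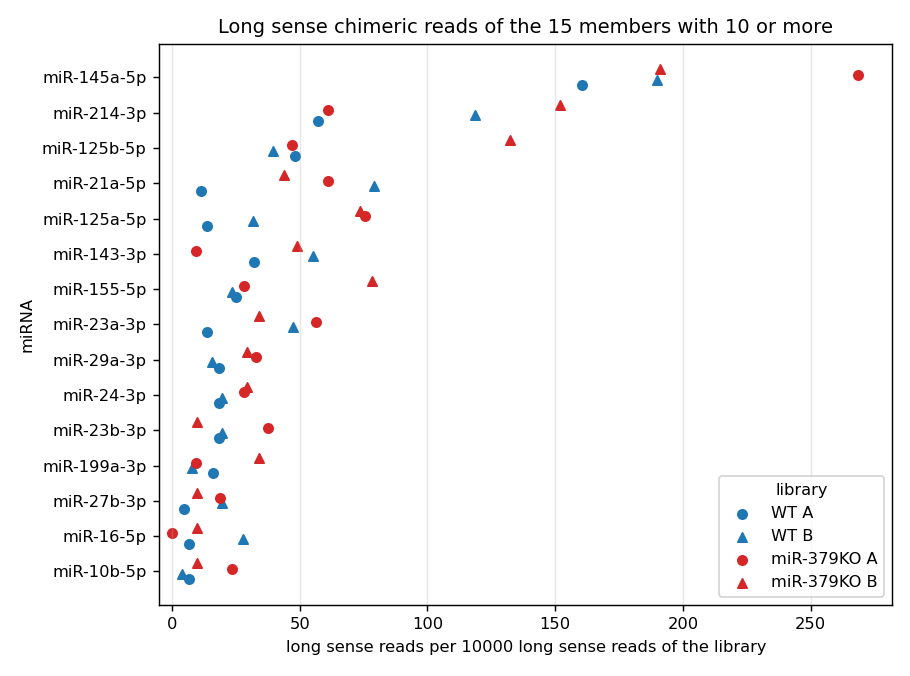
Long sense reads per 10000 long sense reads of the same library, for each of the 15 members with 10 or more of them. Points are single libraries (blue WT, red miR-379KO, circles library A, triangles library B); miR-145a-5p has the highest values in each library, and for most members the colours overlap.

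Of the smooth muscle and mesenchymal miRNAs, mmu-miR-145a-5p was the most frequent member in 3 of the 4 libraries. It had 89 and 54 reads in WT MMC (54.5 and 75.1 per 10000 chimeric reads) and 60 and 43 reads in miR-379KO MMC (94.8 and 66.4). The genotypes overlapped. Its partner mmu-miR-143-3p, made from the same transcript, had 15 and 15 reads in WT MMC and 2 and 12 in miR-379KO MMC, so 44 in all beside 246 for miR-145a-5p. For mmu-miR-214-3p there were 41 and 37 reads in WT MMC and 15 and 45 in miR-379KO MMC, where library B had it as the most frequent member and library A had miR-125a-5p above it. Its cluster partner miR-199a-3p had 7 and 2 reads in WT MMC and 2 and 7 in miR-379KO MMC, each of them a long sense read. All 15 distinct reads of miR-199a-3p were also listed under miR-199b-3p, which is not among the 40, so these reads cannot be assigned to one of the pair.

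The fibrosis miRNA mmu-miR-21a-5p had 5 and 22 reads in WT MMC and 13 and 9 in miR-379KO MMC. The WT libraries were thus the lowest and the highest, at 3.06 and 30.6 per 10000. For the miR-29 family, which represses collagen mRNAs, 37 reads were seen, 28 of them long, and mmu-miR-29a-3p held 9 and 4 of these in WT MMC and 7 and 6 in miR-379KO MMC. The 4 listed members of the miR-30 family had 16 reads together, of which 11 were long. The miR-17 seed family (miR-17-5p, miR-20a-5p and miR-93-5p) had 26 reads, 14 of them long.

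The miR-125 family, known from muscle and hematopoietic cells, had 128 reads, 113 of them long, beside 138 and 99 for miR-214-3p. For mmu-miR-125b-5p there were 24 and 14 reads in WT MMC and 10 and 28 in miR-379KO MMC. mmu-miR-125a-5p had 11 and 8 reads in WT MMC (6.74 and 11.1 per 10000) and 18 and 17 in miR-379KO MMC (28.5 and 26.3). Both miR-379KO shares of miR-125a-5p lay above both WT shares, as was so for 7 of the 20 members tested and for 12.4% of all miRNAs tested.

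Counts of the miR-23a/27a/24 and miR-23b/27b/24 clusters were spread over all libraries. miR-23a-3p had 7 and 12 reads in WT MMC and 12 and 7 in miR-379KO MMC. For miR-23b-3p these were 8 and 5 against 8 and 2, and for miR-24-3p 12 and 5 against 8 and 7. Members of 1 cluster were therefore seen at unequal counts, with 14 reads for miR-27b-3p. mmu-miR-155-5p, an immune and stress miRNA, had 11 and 6 reads in WT MMC and 6 and 16 in miR-379KO MMC, all of them long. miR-16-5p, known for slowing the cell cycle, had 3 and 7 against 0 and 2, and miR-10b-5p, whose gene lies in the HoxD cluster, had 3 and 1 against 5 and 2. For miR-16-5p, the 0 of 6326 chimeric reads in miR-379KO A lies under the floor of 3 reads (4.74 per 10000) and has an exact upper limit of 5.83 per 10000.

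No member differed between WT and miR-379KO MMC in the edgeR quasi-likelihood test over all miRNAs with Benjamini-Hochberg adjustment. Of 628 miRNAs with 10 or more reads, 0% passed an adjusted p of 0.05, and of the 20 members among them none did. In long sense reads, 58 miRNAs and 15 members were tested, again with 0% called and no member. The other 20 and 25 members were below the minimum of 10 reads. Without adjustment 27 miRNAs had p below 0.05 in all reads, and 2.87% of those tested passed with the higher level in miR-379KO MMC. Both members among the latter were miR-125a-5p and miR-93-5p. For miR-125a-5p edgeR gave a log2 fold change of WT over miR-379KO of -1.73 (SE 0.76, adjusted p = 0.987), and in long sense reads -1.60 (SE 0.67, adjusted p = 0.630), where 6.9% of miRNAs passed without adjustment in that direction. For miR-93-5p, of which 6 of 17 reads were long, edgeR gave -2.25 (SE 1.03, adjusted p = 0.987).

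Most members lay on the miR-379KO side of the fit without passing it. The log2 fold change was negative for 18 of the 20 members tested, with a median of -0.84, against 46.5% of all 628 miRNAs and a median of 0.09. In long sense reads 13 of 15 members were negative, with a median of -0.42, against 58.6% and a median of -0.17 for all 58. By the plain share of a library's reads, 7 of the 20 members (miR-10b-5p, miR-24-3p, miR-29a-3p, miR-93-5p, miR-125a-5p, miR-155-5p and miR-221-3p) were higher in both miR-379KO libraries than in both WT libraries, where this was so for 12.4% of all miRNAs, and none was higher in both WT libraries, where it was so for 21.2%. In long sense reads 6 of 15 members were higher in both miR-379KO libraries (27.6% of all) and none in both WT libraries (13.8% of all). For miR-145a-5p the long sense log2 fold change was -0.23 (SE 0.74), for miR-214-3p -0.14 (SE 0.80), for miR-125b-5p -0.84 (SE 0.75) and for miR-21a-5p -0.15 (SE 0.85). Both exceptions in the long sense reads were miR-143-3p at 0.72 (SE 0.76) and miR-16-5p at 1.79 (SE 1.72). WT A, with its high share of unbroken segments and low member share, enters each of these values. Without it 10 of 16 members tested in all reads were negative, with a median of -0.37, and 8 of 13 in long sense reads, with a median of -0.09. With a minimum alignment of 18 nt in place of 16 nt the long sense median was 0.04.

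**Figure D2:**
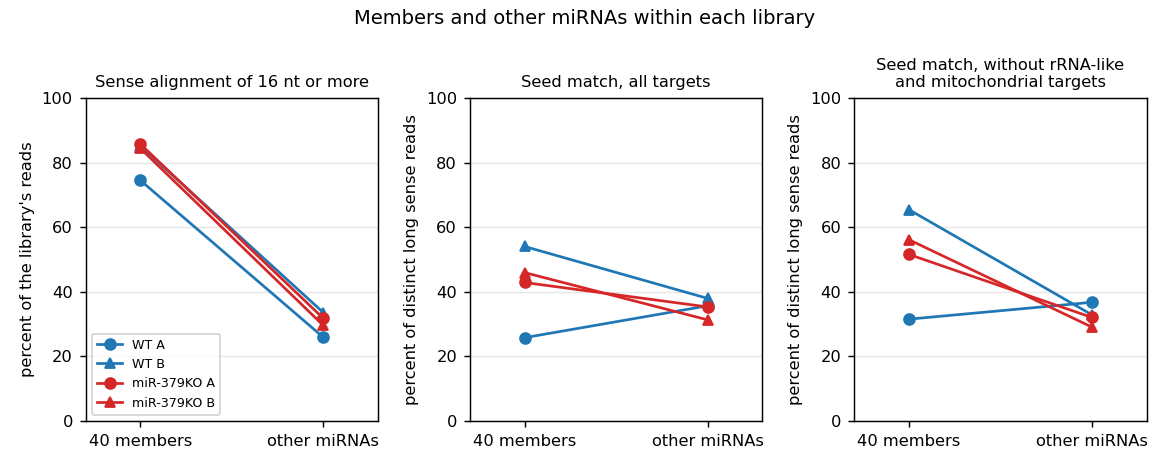
Members and other miRNAs in each library: percent of reads with a long sense alignment (left), and percent of distinct long sense reads whose target segment holds the seed match, over all targets (middle) and without ribosomal RNA-like and mitochondrial targets (right). Lines join the values of 1 library; the left difference has the same direction in 4 of 4 libraries, the others in 3 of 4, with WT A the exception.

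Whether the ligated partner could pair with the seed was read from the target segment, the part of the read aligned to the target gene. A seed match was the reverse complement of miRNA positions 2 to 7, searched on the strand of the read. It was present in 25.8% and 54.0% of distinct long sense member reads in WT MMC and in 42.9% and 45.9% in miR-379KO MMC. For other miRNAs the values were 35.6% and 37.9% against 35.3% and 31.3%. The difference averaged 7.10 ± 11.9 percentage points (SD, n = 4), was positive in 3 of 4 libraries and had p = 0.375 in the exact sign-flip permutation test, and with deposited read counts in place of distinct reads it averaged 0.19. Without ribosomal RNA-like and mitochondrially encoded targets, 234 of 462 member reads held a seed match (50.6%), against 33.8% for other miRNAs. That difference averaged 18.5 ± 16.7 percentage points and was again positive in 3 of 4 libraries (exact sign-flip permutation p = 0.25). The 462 reads still include those on Lars2 (16), Mir5099 (15) and Ttyh1 (8), all with a match. Their segments are traced below to repeated, ribosomal RNA-like or tRNA sequence. Without these genes as well the difference averaged 14.3 percentage points.

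Members differed widely in this measure. It counts distinct reads, so several reads of 1 site count separately, and the intervals treat them as independent. All 15 distinct long reads of miR-29a-3p held the match GGTGCT, which stands in 3.71% of the 7557 target segments of other miRNAs (median length 51 to 60 nt by library). Of these 15 reads, 14 were joined to Mir5099 from bases 45 to 47, so they stand for 1 site. For miR-125b-5p 37 of 57 held TCAGGG (64.9%, 95% exact interval 51.1% to 77.1%; 1.12% elsewhere), and for miR-125a-5p 14 of 33 (42.4%) held the same letters. Of these matches, 10 of the 14 of miR-125a-5p were on Lars2. For miR-125b-5p, 8 of the 37 were on Ttyh1 and 6 on Lars2. For miR-143-3p 20 of 33 held CATCTC (60.6%; 2.58% elsewhere), and 5 of these 20 were on its own precursor gene Mir143.

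miR-21a-5p had TAAGCT in 16 of 36 (44.4%; 0.41% elsewhere), miR-23a-3p had ATGTGA in 17 of 29 (58.6%; 1.43% elsewhere) and miR-27b-3p had CTGTGA in 7 of 10 (1.55% elsewhere). Of the 17 matches of miR-23a-3p, 6 were on Cxcl12 and 4 on n-R5-8s1. Low values were seen for miR-214-3p with CTGCTG in 25 of 85 (29.4%; 2.51% elsewhere), for miR-155-5p with GCATTA in 9 of 35 (25.7%; 0.13% elsewhere) and for miR-145a-5p in 14 of 121 (11.6%; 0.97% elsewhere). For miR-199a-3p it was 0 of 15, which allows up to 21.8% if reads are independent, but 10 of the 15 were on Gm24134. The match of miR-24-3p, TGAGCC, was present in 11 of its 22 reads but also in 23.1% of other segments. All 14 matches of miR-145a-5p were among its 39 reads outside ribosomal RNA-like targets.

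**Figure D3:**
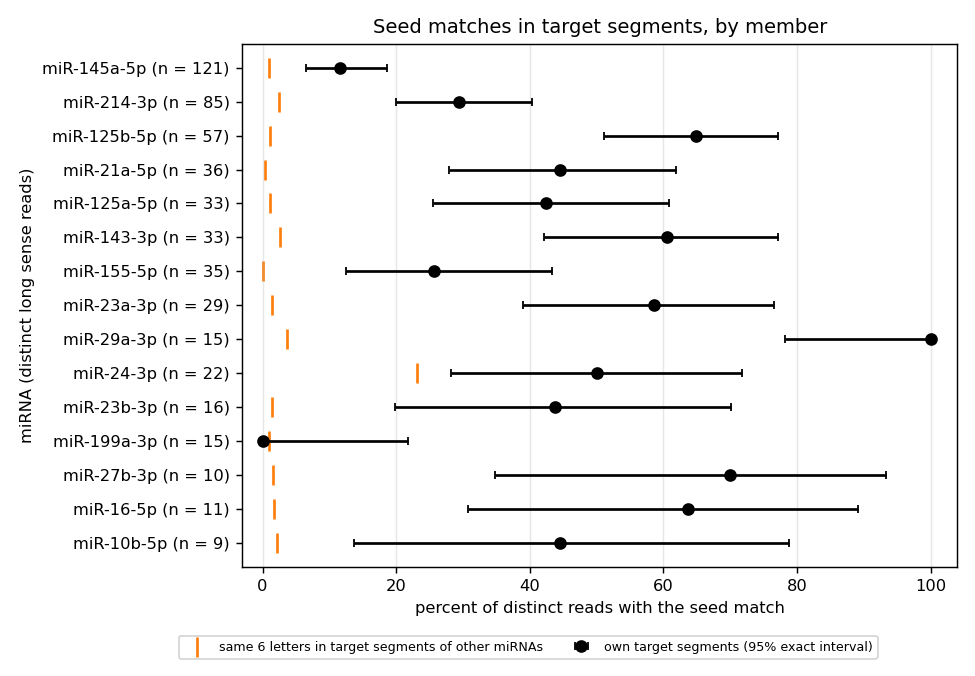
Percent of distinct long sense reads whose target segment holds the seed match (points, with 95% exact binomial intervals) and the percent of target segments of miRNAs outside the list that hold the same 6 letters (orange ticks). Of the 15 members, only miR-199a-3p, at 0 of 15 reads, has an interval that reaches its tick. The tick of miR-24-3p lies far above those of the others. Among segments without ribosomal RNA-like and mitochondrial targets the letters of miR-24-3p stand in 30.1%, inside its interval. The intervals treat distinct reads as independent, but many share 1 site (14 of 15 for miR-29a-3p, 82 of 121 for miR-145a-5p). They are therefore too narrow to show which members stand clear of their ticks.

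The order of the pieces in the read also differed between members. The miRNA stood before its target in 430 of 591 distinct long sense member reads (72.8%), against 49.6% for other miRNAs, and the difference was positive in 4 of 4 libraries (mean 24.8 ± 12.9 percentage points, exact sign-flip permutation p = 0.125). miR-145a-5p stood first in 114 of 121 reads and miR-199a-3p in 15 of 15. The reverse order prevailed for miR-155-5p, which stood first in 5 of 35, and for miR-10b-5p, which stood first in 0 of 9. The target was aligned in the sense direction in 97.3% of member reads.

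Long sense member reads were joined to 390 genes in 438 miRNA-gene pairs, and most pairs were single events. A single read supported 271 of the genes (69.5%), 392 pairs were seen in 1 library, 46 in 2 or more and 4 in all. Alignments to 3′UTRs made up 31.5% of the 549 that remain without ribosomal RNA-like and mitochondrial targets, coding sequence 27.7%, 5′UTRs 0.729% and transcripts with no coding part 38.6%. Seed matches were held by 97 of 173 alignments in 3′UTRs (56.1%) and by 79 of 152 in coding sequence (52.0%). The 3′UTR values include the 16 distinct reads on Lars2, all with a match, whose segments matched the genome outside Lars2 (below). The 3′UTR values are therefore not those of mRNA 3′UTRs alone, and the small difference from coding sequence cannot be read as one of region.

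The leading target was ribosomal RNA-like. Gm42418, a transcript of the 18S ribosomal RNA-like locus on chromosome 17, had 170 member reads, 21.5% of all long sense member reads, beside 12.5% for other miRNAs. miR-145a-5p held 162 of these, with 56 and 34 in WT MMC and 44 and 28 in miR-379KO MMC, so that 75.7% of its long reads went to ribosomal RNA-like genes. In all 82 distinct reads miR-145a-5p stood first, none held its seed match, and the target segment began between bases 550 and 559 of the transcript, most often at base 556 (43 of 82). Of 705 distinct reads of miRNAs outside the list on the same transcript, 7 began in that window (0.993%). The 30 bases from base 556 lie at chr17:39847513-39847542 (GRCm38, plus strand), are noncoding, and are printed because the most frequent member was joined to them in every library.
Gm42418 from base 556: tttgggttccggggggagtatggttgcaaa

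**Figure D4:**
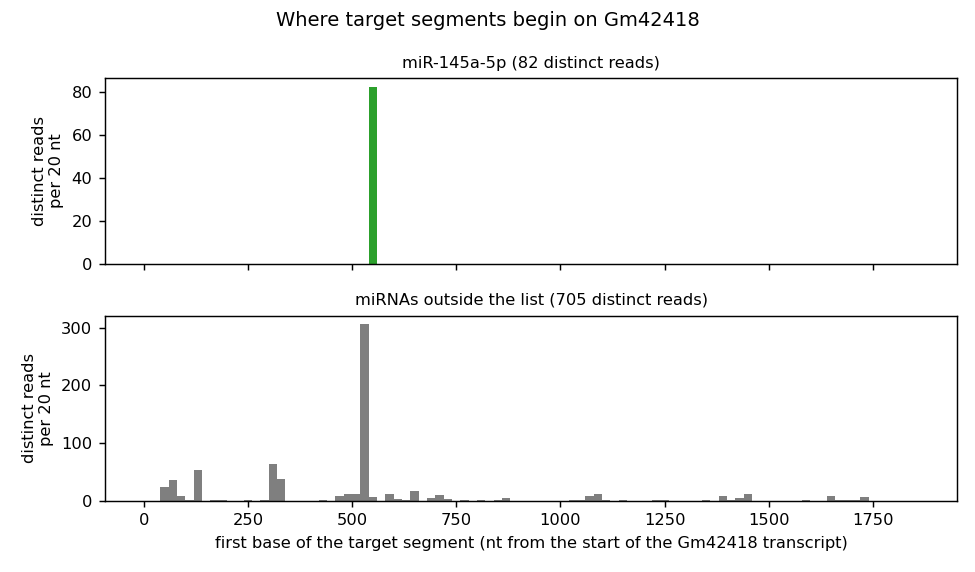
Distance in nt from the start of the Gm42418 transcript to the first base of the target segment, in distinct long sense reads of miR-145a-5p (top) and of miRNAs outside the list (bottom), in bins of 20 nt. All 82 reads of miR-145a-5p fall in 1 bin, while the 705 others are spread, with their highest peak in a bin before it.

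Other members were joined to ribosomal RNA-like genes that many miRNAs outside the list also reached, so that members held 2.24% of the long sense reads on Gm26917 and 2.38% of those on Rn18s-rs5. miR-214-3p was joined to Gm26917, also on the chromosome 17 locus, in 13 reads of all 4 libraries and to the antisense strand of Rn18s-rs5 in 10 reads of 3 libraries. miR-155-5p was joined to mt-Rnr2, the mitochondrial large ribosomal RNA, in 10 reads (0 and 3 in WT MMC, 2 and 5 in miR-379KO MMC). In none of its 8 distinct reads there did miR-155-5p stand first, and 4 held its seed match. With Gm26917 or Rn18s-rs5, no distinct read of miR-214-3p held a seed match.

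Some listed genes stood for small RNAs or repeated sequence. Lars2, the mitochondrial leucyl-tRNA synthetase, was joined to miR-125a-5p in 15 reads of all 4 libraries and to miR-125b-5p in 8 reads of 3 libraries. Each of the 16 distinct reads held the seed match and each target segment began within bases 3030 to 3033, but all 11 distinct target segments matched the genome within Gphn on chromosome 12, and 10 of them also at Lars2 and, for most, on chromosomes 7 and 16. Ttyh1 was joined to miR-125b-5p (8 reads in WT B and 4 in miR-379KO B), always from base 641, and had 1 long sense read of a miRNA outside the list. Of its 5 distinct target segments, 2 matched the genome exactly, both at several lysine tRNA genes (n-TKctt10 to n-TKctt16 in RefSeq).

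Mir5099 was reached by 23 of the 25 long reads of miR-29a-3p, in all 4 libraries (8, 4, 5 and 6), and the 14 distinct reads all held the seed match. The 1 of its 6 distinct target segments that matched the genome whole did so at chr17:39843000-39843022, beside Gm26917, and not at Mir5099 on chromosome 12. miR-199a-3p was joined to the small nucleolar RNA Gm24134 inside Rpl7a in 12 reads (6 and 0 in WT MMC, 0 and 6 in miR-379KO MMC), and miR-214-3p to Gm25091 inside Rpl21 in 7 reads of 3 libraries. In neither pair was a seed match present. Within Gas5, a host gene of small nucleolar RNAs, miR-145a-5p and miR-26a-5p had 4 reads each, with Gm22489 and Gm25789 listed beside it, and only the reads of miR-26a-5p held a seed match. miR-23b-3p was joined to the nuclear noncoding RNA Malat1 in 5 reads of 3 libraries, without a match, and miR-23a-3p to the 5.8S ribosomal RNA gene n-R5-8s1 in 4 reads of 3 libraries, each with a match. miR-143-3p was joined to its own precursor gene Mir143 in 8 reads of WT B and 1 of miR-379KO A. Further pairs seen in 2 or more libraries without a seed match were miR-221-3p with AA474408 (4 reads), miR-16-5p with Gm42418 (4 reads), miR-24-3p with Snhg1 and Gm23246, and miR-214-3p with Gm25835 (2 reads each).

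**Figure D5:**
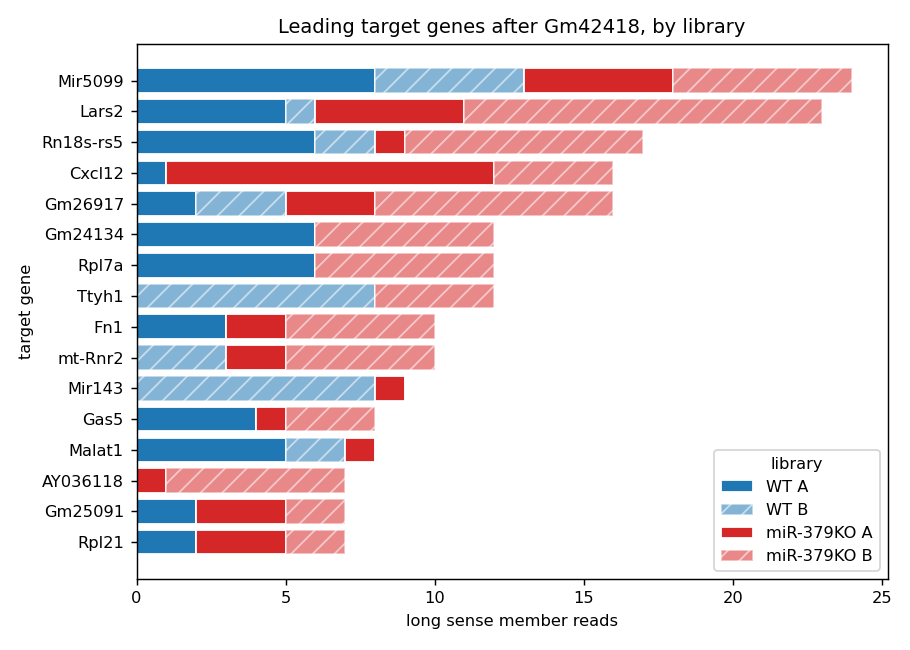
Long sense member reads on leading target genes after Gm42418, stacked by library (blue WT, red miR-379KO, plain A, hatched B). Mir5099, Lars2, Rn18s-rs5 and Gm26917 have reads in all 4 libraries; overlapping genes such as Gm24134 and Rpl7a count the same reads.

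Cxcl12, a chemokine made by stromal cells, had 16 member reads, 94.1% of its long sense reads, with 1 and 0 in WT MMC and 11 and 4 in miR-379KO MMC. miR-23a-3p held 9 and miR-23b-3p 4, all in miR-379KO MMC (7 and 2 for miR-23a-3p, 3 and 1 for miR-23b-3p), and miR-130a-3p, miR-143-3p and miR-214-3p held 1 each. All 9 distinct miR-23 reads held the seed match at 1 site of the 3′UTR. Of the 46 member pairs seen in 2 or more libraries, 5 were in both miR-379KO libraries and neither WT library, and of 1180 such pairs of all miRNAs this was so for 5.17%. The miR-23a-3p and miR-23b-3p pairs with Cxcl12 were among these 5. The others were miR-155-5p with AY036118 and Rn18s-rs5, which share reads, and miR-125b-5p with the gene named 11-Sep in the files. In both WT libraries and neither miR-379KO library there were 6 pairs, beside 15.1% of all pairs, among them miR-125b-5p with Ahnak, a giant scaffold protein of the membrane skeleton. The others were miR-155-5p with the cytoplasmic actin Actg1 and with Gm12715 and Gm8399, miR-16-5p with Gm42418, and miR-23a-3p with the small nucleolar RNA Snord83b. Both miR-125b-5p with the Wnt co-receptor Lrp6 and miR-143-3p with Dpysl3 were seen in 1 library of each genotype, in 3′UTRs without a match. No test of single pairs was made.

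Target sites of pairs seen in 2 or more libraries with a seed match, and of miR-20a-5p on Cdkn1a, are printed because they show the pairing letters themselves. Each is read on the transcript strand, 5′ to 3′, up to 28 bases long, with the match to miRNA positions 2 to 7 in capitals. Coordinates are GRCm38 and come from a single exact match of the printed bases. Cxcl12 (chr6:117181174-117181201), Esyt2 (chr12:116371558-116371585) and Cdkn1a (chr17:29099810-29099837) are 3′UTR sites on the plus strand. Ahnak (chr19:9017369-9017396) and Hspg2 (chr4:137517607-137517634) are sites in coding sequence on the plus strand. The Hspg2 site was seen in 1 read of 1 library. Gas5 (chr1:161038333-161038360), Mir5099 (chr12:36816249-36816269) and mt-Rnr2 (bases 1936 to 1963 of the mitochondrial genome) are noncoding, and the Mir5099 position is that of the printed bases alone, since no whole target segment matched there. The Lars2 site has 4 exact matches in the genome and is given without a position.
Cxcl12 with miR-23a-3p and miR-23b-3p: tcagttctgtctcccagataATGTGAaa
Cdkn1a with miR-20a-5p: tgatcctcagacctgaatagCACTTTgg
Esyt2 with miR-21a-5p: gaggctatgtcacagtattaTAAGCTat
Ahnak with miR-125b-5p: tcaaaggaggtgtagatgttTCAGGGgg
Hspg2 with miR-125b-5p: agcgagggagcctgggcaccTCAGGGga
Lars2 with miR-125a-5p and miR-125b-5p: cctaaggcgagcTCAGGGag
Gas5 with miR-26a-5p: cttgaactctctcactgattACTTGAtg
Mir5099 with miR-29a-3p: cttagatcgatgtGGTGCTcc
mt-Rnr2 with miR-155-5p: taccaaaaacatcacctctaGCATTAca

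Of 50 genes of the extracellular matrix and TGF-β signalling, 29 had a long sense read from any miRNA and 14 had at least 1 from a member, with 44 member reads in all. In WT MMC these were 4 of 210 (1.90%) and 12 of 195 (6.15%) long sense member reads, and in miR-379KO MMC 14 of 180 (7.78%) and 14 of 205 (6.83%). For other miRNAs the values were 2.65% and 3.73% against 3.76% and 4.41%. The member value was the higher of the pair in each library except WT A.

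Fn1, which encodes fibronectin, had 10 member reads in 3 libraries, from miR-155-5p (5), miR-93-5p (3) and miR-214-3p (2), all in coding sequence, and only the distinct read of miR-93-5p held a seed match. Members were 7.14% of the long sense reads on Fn1, which many other miRNAs also reached. Col1a1, the main chain of type I collagen, had 2 reads of miR-214-3p and 1 of miR-125b-5p in 3 libraries, each with a seed match in coding sequence. Col5a2 had 2 reads each of miR-125a-5p and miR-125b-5p, also with matches in coding sequence, Thbs1, an activator of latent TGF-β, had 3 of miR-27b-3p, and Acta2, the smooth muscle actin, had 2 of miR-31-5p without a match. Col3a1 and Col4a3 had 2 reads each, and Col5a1, Ctgf, Itgb1, Lox, Loxl2 and Mmp2 had 1. The miR-29 members had no read on a collagen gene, and no member had a long sense read on Tgfb1, Tgfbr1, Tgfbr2, Smad2, Smad3, Smad4, Smad7, Zeb1 or Zeb2.

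Of 211 pairs of a member and a target taken as known from textbooks, in lists that members of a family or cluster share, 1 was seen, miR-20a-5p with Cdkn1a, the cell cycle inhibitor p21, in 3 copies of 1 distinct read in WT B. Of the 78 known target genes, 24 had a long sense read from any miRNA. The reads of mmu-miR-21a-5p, for example, were spread over 36 genes, led by Ddb1, Nedd4 and Slmap with 3 reads each, and did not include Pdcd4 or Spry1. Esyt2 was the 1 pair of miR-21a-5p seen in 2 libraries. With 1 to 214 long sense reads for each of the 31 members that had any, an unseen pair was not detectable at this depth, which does not show that it is absent.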

How the data were processed

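AGO2-CLASH chimeric reads were deposited as 1 table per library, with WT and miR-379KO MMC in 2 libraries each (A and B). The authors' tables give each read its sequence, a mature miRNA, a target gene and transcript with alignment positions, a deposited reads count of identical reads (counts), and an alignment score and MFE (deposited as scores whose tool and unit are not given in the sources used here). Per the study's methods, merged read pairs that aligned to the genome or to transcripts had been removed (Bowtie2 2.1.0 in the submitters' processing notes), and BLAST then placed the rest on mature miRNAs and on mouse transcripts, so short or antisense hits can enter. No columns of the authors' own comparisons were used. Reads listed for several miRNAs or genes were counted once for each.

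Counts per miRNA (minimum 10 reads) were tested with edgeR 4.0.16 (quasi-likelihood, TMM, Benjamini-Hochberg, all miRNAs, genotype as the only term), checked on simulated data. The labels do not say that libraries came from separate cultures or animals, so p-values measure the spread between these libraries. Intervals are 95% exact binomial, and the floor is 3 reads. Deposited target segments were compared with GENCODE vM21 transcripts (GRCm38) by edlib 1.3.9.post1 and given a region at 90% identity or more. Ribosomal RNA-like targets were Gm42418, Gm26917, AY036118, Rn18s-rs5, n-R5 genes and mt genes. Python 3.11.15, scipy 1.17.1, pandas 2.3.3 and R 4.3.3 were used.

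The members, gene lists and tests were chosen with earlier results of these data known. List genes given under 2 symbols were merged. Named were all members by reads, those with 10 or more long sense reads in full, the 15 leading target genes, pairs in 2 or more libraries, and list genes with a member read. Alternatives covered DESeq2 1.42.0, normalization, minimum count, read counting, alignment length and orientation, single listings, genome-contained segments and each library left out. A few target genes are counted in the totals and are not reported here.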

Additional observations from a re-analysis of the deposited data

How the results depend on the processing

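No member passed an adjusted p of 0.05 in any alternative that used all 4 libraries, in all chimeric reads or in long sense reads, with either edgeR or DESeq2. With the library letter as a replicate block, 0 members were called in both tables, at a smallest adjusted p of 0.998 and 0.526. Whether the letters pair the libraries could not be told. Same-lettered libraries had a correlation of -0.06 in their deviations. With 2 libraries per genotype this only mirrors the value for different letters (0.06), and counts were low. Fits with 1 library left out held a single library in 1 genotype, so the spread came from the other genotype alone. For these fits only log2 fold changes are given.

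The direction of small log2 fold changes (WT over miR-379KO) in long sense reads turned in several settings. With alignments of at least 18 nt, miR-145a-5p was 0.21, miR-214-3p 0.49 and miR-21a-5p 0.13. With exact alignments they were 0.079, 0.14 and 0.030, and with no minimum count 0.23, 0.21 and 0.22. Without genome-contained segments, miR-145a-5p was 0.00304 and miR-214-3p 0.041. Leaving out single libraries moved miR-145a-5p between -0.41 and 0.13, miR-214-3p between -0.56 and 0.69, miR-125b-5p between -1.31 and 0.13 and miR-21a-5p between -1.79 and 0.77. It turned positive without miR-379KO A for miR-145a-5p and miR-21a-5p (0.20), without miR-379KO B for miR-214-3p and miR-125b-5p, and without WT A for miR-214-3p (0.38) and miR-21a-5p. No such turn was seen for miR-125a-5p, miR-143-3p or miR-29a-3p, but miR-143-3p moved between 0.064 (without miR-379KO A) and 2.33 (without miR-379KO B). The causes were not tested.

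The summed member share per 10000 reads was 395 in WT and 595 in miR-379KO MMC with exact alignments, 362 and 495 without genome-contained segments, and 318 and 452 with sense alignments only. With reads listed with a single miRNA it was 242 and 348. With each distinct sequence counted once it was 248 and 339.5, and WT B then lay above miR-379KO A. Leaving out a library gave 173 to 318 in WT and 332 to 375 in miR-379KO MMC. The difference in long alignments kept its sign in each alternative. The difference in seed matches was positive on average in each, but with deposited read counts it fell to 0.19 and was positive in 2 of 4 libraries (exact sign-flip permutation p = 1). Without ribosomal RNA-like and mitochondrial targets it was 18.5, and 14.3 when Lars2, Mir5099 and Ttyh1 were left out as well, a setting added after seeing the data. Leaving out single libraries moved the difference in long alignments between 51.4 and 53.5 percentage points and that in seed matches between 4.11 (without WT B) and 12.8 (without WT A). Target genes numbered 302 to 385 in the other settings and 278 to 333 with a library left out, against 390. With 210 or fewer long sense member reads a library, pairs under 3 reads cannot be told from absent ones.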
